A study of Mus musculus with 4 samples.

Results

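The genes examined here encode the machinery that carries new secretory and membrane proteins into the endoplasmic reticulum (ER) and the coats that move them between the ER and the Golgi. They were taken from the array by name, as every gene whose symbol begins with Sec or Tmed and a digit, Srp and a digit, or Sar1, together with the Ssr, Spcs and Kdelr genes and the subunits of the COPI coat. The rule gave 58 of the 17917 genes on the array, with 91 of its 25697 probes. Of these, 52 genes with 77 probes were bright enough to test, out of 10183 testable genes. The 6 genes left out were Sec16b, Ssr1, Sec14l3, Sec14l4 and Sec1, detected on no array, and Kdelr2, detected on 1 control IP array.

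The study recovered RNA bound to phosphorylated ribosomes from mouse hypothalamus, where S6, a protein of the small ribosomal subunit, gains phosphate when neurons are active. All samples came from C57Bl/6J mice aged 12 weeks, kept on a light-dark cycle of 12 h each and killed at about circadian time 6. The salt group (n = 2) had been injected 2 h earlier with 325 uL of 2 M NaCl and the control group (n = 2) with phosphate-buffered saline, and both then had no access to water. For each sample, RNA precipitated with an antibody against S6 phosphorylated at residues 244 and 247 (IP) and the total RNA (input) were hybridised to separate Illumina BeadArrays, 8 arrays in all. It is not labelled whether 1 animal or several went into a sample, so the p-values speak only for the spread among these 4 samples.

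A protein bound for secretion is recognised at its signal peptide by the signal recognition particle (SRP) as it leaves the ribosome, is threaded through the Sec61 channel and has its signal peptide removed by signal peptidase. COPII coats then carry it from ER exit sites towards the Golgi, and COPI coats return escaped ER proteins and cargo receptors. Neuropeptide neurons of the hypothalamus, which make vasopressin, oxytocin and many other hormones, send large amounts of protein along this route.

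Of the 58 genes, 49 matched the RefSeq promoter table (GRCm38.p6), with 52 promoter windows of 300 bases each. These were searched on both strands for DNA elements linked to ER stress. The unfolded protein response element core TGACGTGG, known to be bound by XBP1 and ATF6, stood in the windows of 6 genes, 11.5% of the 52 windows, against 0.831% of 10232 windows of tested genes and 0.676% of all 32851. The genes were Sec24d, Copb1, Kdelr3, Copb2, Sec23a and the untested Sec16b. The 250 bases before the gene start are shown for the 3 tested genes whose match lies wholly upstream, with the match or its reverse complement in capitals. They lie at chr3:123267246-123267495 on the plus strand (Sec24d), chr7:114254681-114254930 on the minus strand (Copb1) and chr15:79516158-79516407 on the plus strand (Kdelr3).
Sec24d: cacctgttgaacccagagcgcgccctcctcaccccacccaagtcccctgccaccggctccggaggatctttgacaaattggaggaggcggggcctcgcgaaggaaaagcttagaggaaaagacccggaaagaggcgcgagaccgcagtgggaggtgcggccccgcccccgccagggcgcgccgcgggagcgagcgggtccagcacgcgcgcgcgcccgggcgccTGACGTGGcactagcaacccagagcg
Copb1: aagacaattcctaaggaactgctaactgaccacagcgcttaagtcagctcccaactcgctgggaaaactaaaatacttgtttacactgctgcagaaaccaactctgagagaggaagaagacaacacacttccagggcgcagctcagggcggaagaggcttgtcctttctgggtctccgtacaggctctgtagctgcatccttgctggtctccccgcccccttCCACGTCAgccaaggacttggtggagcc
Kdelr3: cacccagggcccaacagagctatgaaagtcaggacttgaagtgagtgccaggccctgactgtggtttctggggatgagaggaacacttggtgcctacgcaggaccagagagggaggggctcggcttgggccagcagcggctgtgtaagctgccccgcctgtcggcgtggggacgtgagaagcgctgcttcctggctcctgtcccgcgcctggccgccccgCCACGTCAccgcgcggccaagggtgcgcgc
The match began 26 bases before the gene start in Sec24d, 28 in Copb1 and 30 in Kdelr3. Their mean log2 IP/input in control samples was 2.71, 0.41 and 0.13. For Copb2 and Sec23a, the other tested genes with a match, it was 0.08 and -0.25. Only Sec24d passed the test described further on, in which 19.4% of all genes tested were higher. The ER stress response elements ERSE and ERSE-II, whose last letters overlap the reverse complement of TGACGTGG, matched no window of these genes, against 0.127% and 0.0684% of the windows of tested genes. The cyclic AMP response element TGACGTCA matched 1 window, that of Cope (1.92%, against 3.08% of the windows of tested genes). These matches describe the letters of the windows only.

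Intensities were deposited on a linear scale, with medians of 143.3 to 161.9 per array and 49 to 53 of the 58 genes detected on each array. Across the tested probes, log2 IP/input correlated with r = 0.87 between both control samples and with r = 0.73 between both salt samples. Over the 52 genes the correlations were 0.90 and 0.70. Genes are not independent replicates, so no test goes with these values. Of 9 marker genes of hypothalamic neurons, 7 were detected on all 8 arrays. The stimulus showed in the IP: the activity-induced gene Fosb rose by 4.28 ± 0.20 log2 (SE, limma adjusted p = 4.61e-05) and the vasopressin gene Avp by 3.41 ± 0.36 (adjusted p = 0.0127). Fosb rose in the input as well, by 3.08 log2 without salt replicate 1 and 2.85 without salt replicate 2. Its input call was lost in both of these fits, and also without control replicate 2 (2.81 log2). In the IP, Fos rose by 3.15 ± 0.40 (adjusted p = 0.0225), while oxytocin (Oxt) differed by 1.05 ± 0.28 (adjusted p = 0.495). Without salt replicate 1, the adjusted p for Avp was 0.0618 and for Fos 0.353, and without salt replicate 2 they were 0.123 and 0.702. Without control replicate 1 the adjusted p for Avp was 0.0521, and without control replicate 2 it was 0.164.

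The first comparison asked how the precipitated RNA of the saline-injected control samples compared with their total RNA for these genes. The genes of translocation leaned to the input: 9 of the 20 tested genes of SRP, Sec61, the translocon-associated protein complex and signal peptidase were lower in the IP and none was higher. The coats and their cargo receptors were mixed, with 4 of 28 tested genes higher and 7 lower. The COPII adaptor gene Sec24d was 6.54-fold higher in the IP, on its only probe. Over all 52 genes 16 were lower and 4 higher (30.8% and 7.69%), against 20.9% lower and 19.4% higher among all genes tested. The median log2 IP/input was -0.21 over the 52 genes and -0.05 over all genes. The 2 broad groups of roles were formed after the values were seen, so their counts are a description. In bulk tissue, these ratios do not show which cells the precipitated RNA came from. The calls rest on both control samples: without control replicate 1 only Sec24d (higher) and Sec13 (lower) passed, and without control replicate 2 only Sec24d passed. In those fits the lone control sample is assumed to vary like the salt samples, and the calls over all genes fell to 654 higher and 414 lower without control replicate 1 and to 554 and 237 without control replicate 2, from 1972 and 2132. Without salt replicate 1, and likewise without salt replicate 2, 28 of the 52 genes passed, 9 higher and 19 lower, and all 20 were among them. In both of these fits the calls over all genes grew too, to 2568 higher and 2948 lower of 10183.

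**Figure D1:**
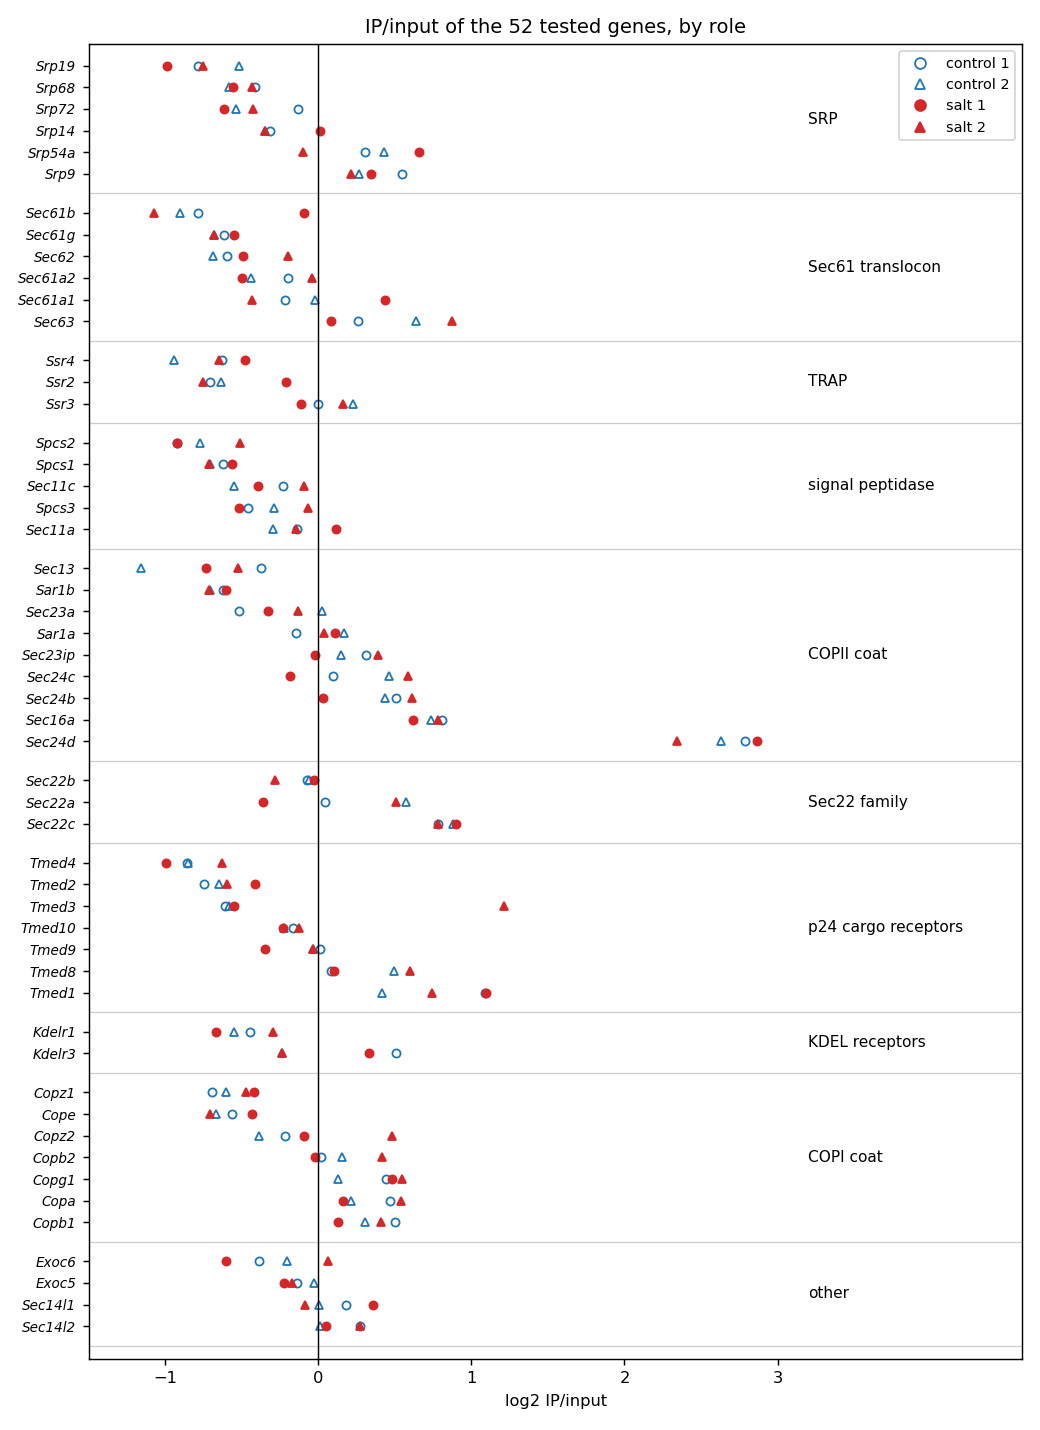
Log2 IP/input (x axis) of the 52 tested genes, 1 row per gene grouped by role; open blue symbols are the 2 control samples and filled red symbols the 2 salt samples. Sec24d stands alone at the right, between 2.34 and 2.87 in all samples, and the 5 signal peptidase genes lie left of 0 in all samples apart from Sec11a in salt sample 1, at 0.12.

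In SRP, 2 of the 6 tested genes were lower in the control IP and none was higher, with a median of -0.33. Of all genes tested, 20.9% were lower and 19.4% higher. Srp19, which helps assemble the particle on its RNA, had log2 IP/input of -0.78 and -0.52 in the control samples and -0.99 and -0.76 in the salt samples. All 4 values lay below 0, and the control mean of -0.65 ± 0.16 passed (adjusted p = 0.0169). Srp68, the partner of Srp72, was also lower (-0.50 ± 0.16, adjusted p = 0.0371). Srp72 itself gave -0.34 ± 0.17 and did not pass in control samples. The Srp9 and Srp14 proteins work as a pair that slows the ribosome, but their mRNAs had ratios on opposite sides of 0. Srp9 gave 0.54 and 0.27 in the control samples and Srp14 gave -0.32 and -0.35, neither past the threshold. The probe for Srp54, the GTPase that holds the signal peptide, gave 0.37 ± 0.20. Mouse has near-identical copies of this gene, so its value is uncertain as to the copy.

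Of the 6 genes of the Sec61 channel and its helpers, 3 were lower and none higher, against 20.9% and 19.4% of all genes. Their median was -0.48. Sec61b, a small channel subunit, read -0.78 and -0.90 in the control samples (mean -0.84 ± 0.23, adjusted p = 0.0232). In the salt samples it read -0.09 and -1.07, a wider spread than in the controls. Its deposited intensities were 159.8 to 274.1 on the control arrays, near the undetected medians of 99.3 to 112.2. Sec61g, the other small subunit, gave -0.62 and -0.68 in controls and -0.55 and -0.68 in salt samples, and was lower (-0.65 ± 0.15, adjusted p = 0.0134). The channel genes Sec61a1 and Sec61a2 gave -0.12 ± 0.22 and -0.32 ± 0.18 and did not pass; the Sec61a1 probe was near background, at most 177.1 on any array. Sec62 and Sec63 encode partner proteins that help insert small or late-arriving precursors. Sec62 was lower at -0.64 ± 0.16 (adjusted p = 0.0168), while Sec63 gave 0.45 ± 0.22 without passing (adjusted p = 0.134).

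The translocon-associated protein complex sits beside the channel and helps a subset of precursors enter. Ssr4 read -0.63 and -0.94 in the control samples and -0.48 and -0.65 in the salt samples, all below 0 (control mean -0.78 ± 0.16, adjusted p = 0.00859). Ssr2 was lower as well (-0.67 ± 0.18, adjusted p = 0.0214). Ssr3, of the same complex, gave 0.11 ± 0.16. Signal peptidase had all 5 tested genes below 0 in the control mean, 2 of them past the threshold, against 20.9% of all genes. Spcs2 gave -0.92 and -0.77 in controls and -0.92 and -0.51 in salt samples, and its control mean was 1.80-fold lower in the IP (-0.85 ± 0.17, adjusted p = 0.00749). Spcs1 was lower at -0.67 ± 0.15 (adjusted p = 0.0125). The genes of the catalytic subunits, Sec11a and Sec11c, gave -0.22 ± 0.16 and -0.39 ± 0.17 and did not pass.

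Among the 9 tested COPII genes, 2 were higher and 2 lower (19.4% and 20.9% of all genes), with a median of 0.23. Sec24d, 1 of the Sec24 adaptors that select cargo for the coat, had deposited input intensities of 304.4 and 322.3 in the control samples and IP intensities of 1583.1 and 1487.2. In the salt samples its input intensities were 308.3 and 254.8 and its IP intensities 1775.8 and 974.9. Every IP value lay above every input value. The log2 ratio was 2.71 ± 0.18 in control (adjusted p = 7.89e-04) and 2.60 ± 0.18 in salt samples (adjusted p = 0.00123), and in control samples it ranked 4 of 10183 genes. For the other tested Sec24 genes the log2 ratio was 0.47 ± 0.18 (Sec24b) and 0.28 ± 0.21 (Sec24c), and neither passed. Sec24b, Sec24c and Sec24d had 1 probe each on the array, and the difference between these genes was not tested. Sec16a, the scaffold of ER exit sites, read 0.81 and 0.73 in controls and 0.62 and 0.78 in salt samples and was higher (0.77 ± 0.15, adjusted p = 0.00738). Sec13, an outer coat subunit that also serves in the nuclear pore, read -0.37 and -1.16 in controls and was lower (-0.77 ± 0.21, adjusted p = 0.0228). Sar1b, the GTPase that starts the coat, was lower at -0.66 ± 0.15 (adjusted p = 0.0122), while its paralog Sar1a gave 0.01 ± 0.16.

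**Figure D2:**
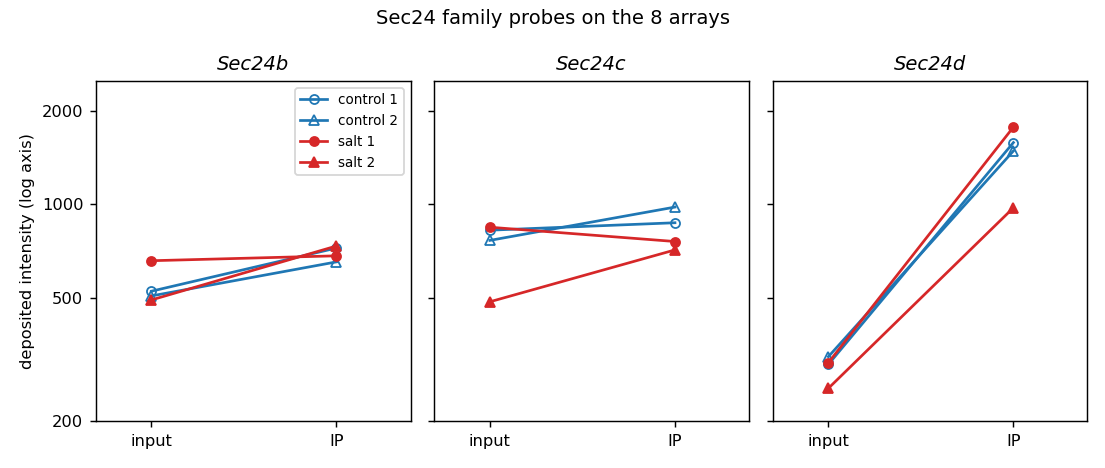
Deposited intensity (log axis) of the Sec24b, Sec24c and Sec24d probes on the 8 arrays, with a line from the input to the IP array of each sample; open blue symbols are control samples and filled red symbols salt samples. The 4 lines of Sec24d climb from inputs of 254.8 to 322.3 to IP values of 974.9 to 1775.8, while Sec24b and Sec24c stay between 484.8 and 979.8.

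Of the 3 tested Sec22 genes, named for a SNARE of ER-Golgi transport, Sec22c was higher: its ratios were 0.78 and 0.88 in controls and 0.90 and 0.78 in salt samples (0.83 ± 0.15, adjusted p = 0.00557). Sec22b, the SNARE itself, gave -0.07 ± 0.16. For Sec22a the brightest probe gave 0.31 ± 0.24, and its 3 tested probes disagreed in whether they passed. The p24 proteins are membrane cargo receptors that travel with both coats. Of their 7 genes 1 was higher and 2 were lower, against 19.4% and 20.9% of all genes. Tmed4 had deposited input intensities of 1420.7 and 1330.6 in controls and 1550.1 and 1416.3 in salt samples. Its IP intensities were 810.0 and 747.7 in controls and 792.9 and 922.0 in salt samples, all below the inputs. The control log2 ratio was -0.86 ± 0.17 (adjusted p = 0.00645). Its 4 probes all had negative ratios, but they disagreed in whether they passed. Tmed2 was lower at -0.70 ± 0.16 (adjusted p = 0.0111) and its partner Tmed10 gave -0.19 ± 0.15. Tmed1 was higher at 0.75 ± 0.20 (adjusted p = 0.0214), from 1.09 and 0.42 in the control samples. In salt samples its input was not detected, so that the IP was at least 1.75-fold higher (adjusted p = 0.0119). Of the KDEL receptors, which return escaped ER proteins, Kdelr1 was lower (-0.50 ± 0.17, adjusted p = 0.0451), and Kdelr3 gave 0.13 ± 0.23, from a probe near background (at most 199.5 on any array, detected on 1 input array per group).

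For the COPI coat, 2 of 7 genes were lower in the control IP and none was higher, with a median of 0.08. The shares of all genes were 20.9% lower and 19.4% higher. Copz1 read -0.70 and -0.60 in the control samples and was lower (-0.65 ± 0.15, adjusted p = 0.0132), as was Cope (-0.61 ± 0.16, adjusted p = 0.019). The large subunit genes Copa and Copb1 gave 0.34 ± 0.17 and 0.41 ± 0.16 without passing. Copg1 had 4 tested probes and depended on the probe. Its brightest probe read 0.45 and 0.13 in controls, and its 2 dimmer probes described as transcript variant 2 read -1.48 to -0.71 in controls. The brightest probe did not pass in control samples, and both of these transcript variant 2 probes were lower, so the gene has no single value here. The remaining tested probe is not described here. The name rule also took 7 genes outside these roles. Of them the exocyst genes Exoc5 and Exoc6 and the lipid-binding Sec14l1 and Sec14l2 were tested, at -0.30 to 0.14, and none passed.

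**Figure D3:**
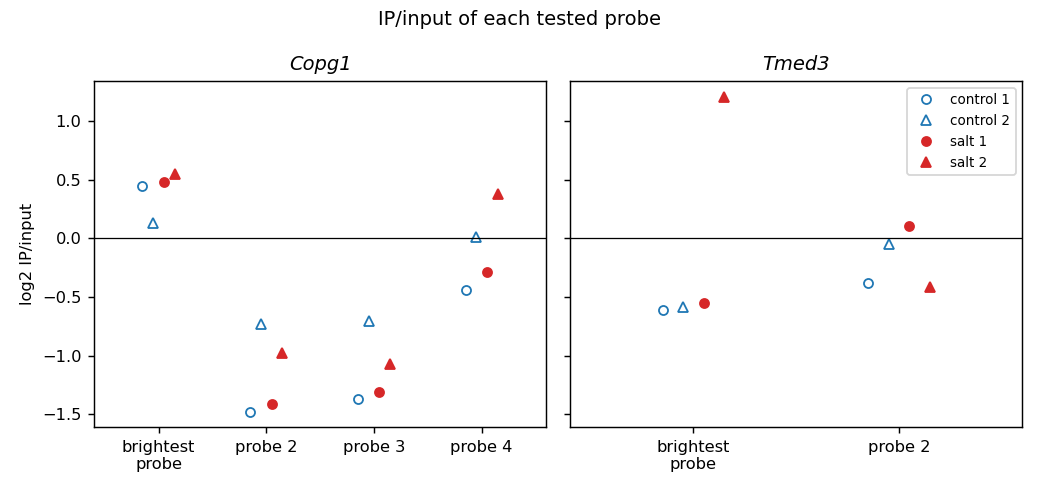
Log2 IP/input of each tested probe of Copg1 and Tmed3, ordered by brightness, with open blue symbols for control samples and filled red symbols for salt samples. The Copg1 probes fall on both sides of 0, and the Tmed3 value of 1.21 in salt sample 2 appears on 1 of the 2 probes.

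After salt, 12 of the 52 genes were lower in the IP than in the input and 5 were higher (23.1% and 9.62%), against 18.6% and 18.2% of all genes tested. Median scaling in place of quantile scaling turned this split of 5 to 12 into 4 to 21, and over all genes it moved 1854 higher and 1893 lower to 1470 and 2850. The median log2 IP/input was -0.16 over the 52 genes and -0.04 over all genes. Of the genes called, 11 lower and 4 higher ones were also called in the control samples. The 5 genes called in control samples only, all lower, were Copz1, Kdelr1, Sec61b, Sec62 and Ssr2, and those called in salt samples only were Copg1 (higher) and Srp72 (lower). None of these passed the test of salt against control. The Copg1 call (0.51 ± 0.16, adjusted p = 0.0399) was lost without any 1 of the 4 samples. Per sample, 23 of the 52 genes were below 0 in all 4 samples (44.2%, against 35.8% of all genes) and 12 were above 0 in all 4 (23.1%, against 31.3%). Without control replicate 1 or 2 the count of lower genes was 7 in salt samples, and the calls over all genes were 1438 higher and 1357 lower.

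**Figure D4:**
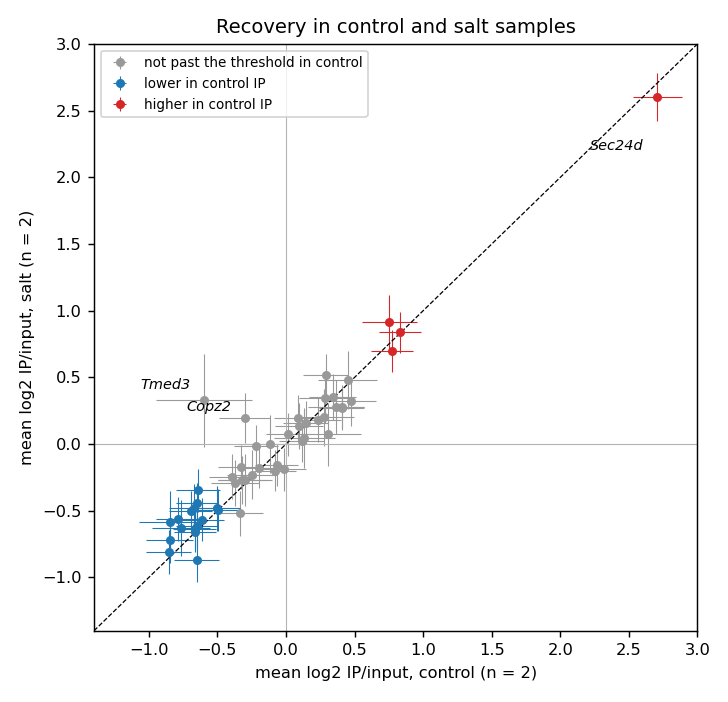
Mean log2 IP/input of the 52 tested genes in control (x axis) and salt samples (y axis), coloured by their call in control samples. Bars are the moderated SE, from a spread shared by both groups, and the dashed line marks equal values. Most genes lie along the line, Sec24d at 2.71 and 2.60, and Tmed3 (-0.60 and 0.33) stands off it.

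The second comparison asked whether salt altered these mRNAs in the IP, in the input, or in their ratio. None of the 52 genes passed in any of the 3. For the IP/input ratio, 0 of 10183 genes passed in limma (0% background), and 262 genes (2.57%), none of them among the 52, had an unadjusted p under 0.05. In the IP, 17 genes passed, all higher (0.167%), and Tmed3 was the only gene of the 52 with an unadjusted p under 0.05, against 5.85% of all genes. In the input, 2 genes passed (0.0196%), and none of the 52 had an unadjusted p under 0.05, against 2.25% of all genes. The median differences over the 52 genes were 0.028 log2 for the ratio, 0.052 for the IP and -0.00 for the input. The SE of a gene's difference ranged from 0.22 to 0.49 for the ratio and from 0.15 to 0.43 for the IP and the input. In the ratio and in the IP 51 of the 52 estimates lay within 0.5 log2, and in the input all 52 did. The groups did not overlap for 7 genes in the ratio (13.5%, against 27% of all genes), 14 in the IP (26.9%, against 31%) and 12 in the input (23.1%, against 25.4%).

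Tmed3, a p24 cargo receptor, showed the widest gap of the 52, carried by salt sample 2. Its deposited IP intensity was 257.9 and 228.7 in the control samples, 268.8 in salt sample 1 and 642.5 in salt sample 2. Its input intensity was 282.5 to 324.0 on all 4 input arrays. The difference was 1.07 ± 0.43 in the IP (limma adjusted p = 0.867) and 0.93 ± 0.49 in the ratio (adjusted p = 1.00), from ratios of -0.61 and -0.58 in controls and -0.55 and 1.21 in salt samples. Without salt replicate 1 the only salt sample left is the high one, whose spread is then assumed to be that of the controls. That fit gave a ratio difference of 1.81 (limma adjusted p = 0.0238) and called 4 genes higher and 8 lower of 10183. The second Tmed3 probe, near background, gave 0.06 for the same ratio difference. The log2 salt over control ratio in the authors' deposited table was 0.84 for Tmed3.

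The other genes with the smallest p-values did not pass either. Copz2, a COPI subunit, gave 0.50 ± 0.26 in the ratio and -0.44 ± 0.22 in the input, with intensities of 135.5 to 176.3 on all arrays and so near background. Sec62 gave 0.30 ± 0.23 in the ratio. Among the genes below 0 in the ratio, the smallest p-values went with -0.22 ± 0.23 for Srp19, -0.18 ± 0.24 for Srp72 and -0.18 ± 0.23 for Tmed9, and the lowest estimate was -0.24 ± 0.33 for Sec22a. In the IP, Ssr4 gave 0.38 ± 0.18 (limma adjusted p = 0.91) and Sec11a 0.25 ± 0.17, while Sec24c gave -0.41 ± 0.26, Sec24d -0.28 ± 0.27 and Srp9 -0.20 ± 0.15. In the input, Sec24b gave 0.20 ± 0.18, Tmed9 0.26 ± 0.16, Srp68 0.19 ± 0.15 and Sec24c -0.33 ± 0.26.

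**Figure D5:**
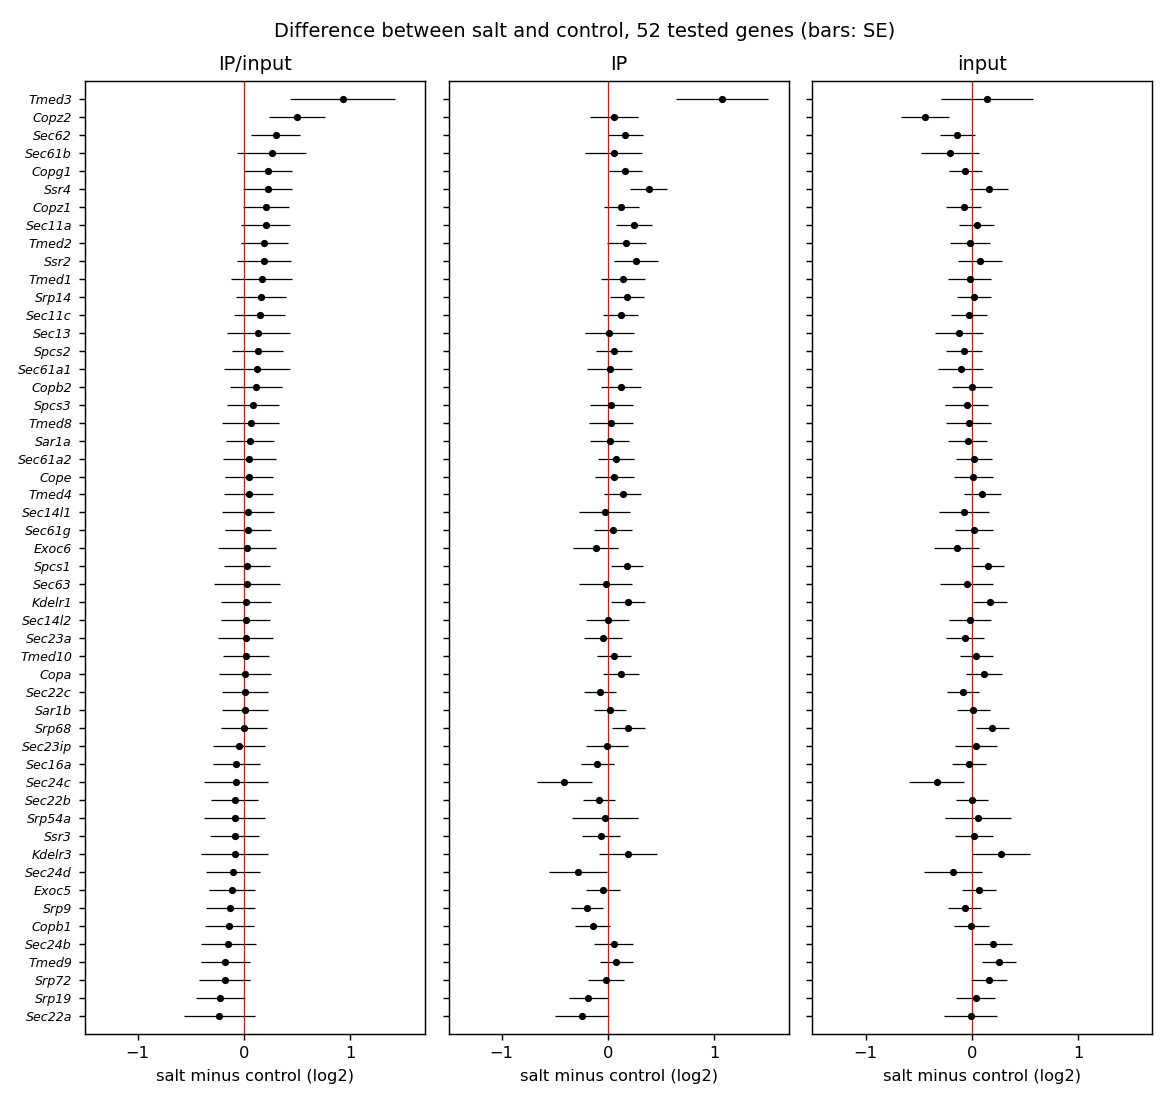
Salt minus control (log2) of the 52 tested genes for IP/input, IP and input, with SE bars, in the order of the IP/input difference. Apart from Tmed3 (0.93 and 1.07) the points for IP/input and IP lie within 0.5 of 0.

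Other genes of the pathway, which the name rule did not take, were counted alongside. Of 12 tested genes of the SRP receptor, TRAM and oligosaccharyltransferase, 4 were lower and 1 higher in the control IP. Among all genes tested 20.9% were lower and 19.4% higher. The lower genes of this list included Ostc (-1.04 ± 0.15, adjusted p = 0.00245) and Ddost (-0.86 ± 0.17, adjusted p = 0.00734), subunits of the enzyme that attaches sugar chains. Tram1, which helps nascent chains into the membrane, read 1.30 and 1.26 in the control samples and was higher (1.28 ± 0.27, adjusted p = 0.00898). Among 15 tested ER folding genes 4 were lower and none higher, beside the same shares of all genes. The co-chaperone gene Dnajb9 (-0.83 ± 0.15, adjusted p = 0.00543) and Manf (-0.80 ± 0.16, adjusted p = 0.00706) were among the lower ones.

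Of 12 tested regulators of the unfolded protein response 4 were higher and 1 was lower in the control IP, against 19.4% higher and 20.9% lower among all genes, and the difference from the other lists was not tested. Ddit3, the transcription factor CHOP, read 1.34 and 1.54 in controls and 1.25 and 1.15 in salt samples (control mean 1.44 ± 0.16, adjusted p = 0.00122). Ern1, the ER stress sensor IRE1, was not detected in any input, so that its control IP was at least 1.39-fold higher (adjusted p = 0.00259). Ppp1r15a, which helps remove phosphate from a translation factor, was higher in the IP of the salt samples (1.44 ± 0.19, adjusted p = 0.00246). Xbp1, whose mRNA is the target of IRE1, was lower at -0.88 ± 0.16 (adjusted p = 0.00493). Of 30 tested coat regulators, tethers and cargo receptors, 4 were higher and 8 lower in control samples, beside the same shares of all genes. The SNARE gene Ykt6 (1.15 ± 0.19, adjusted p = 0.00366) and Ergic2 (0.77 ± 0.17, adjusted p = 0.0106) were higher, and the Golgi GTPase gene Arf4 (-1.08 ± 0.20, adjusted p = 0.00526) and Yipf5 (-0.82 ± 0.20, adjusted p = 0.0146) were lower. In the salt samples, genes of these lists past the threshold included Gbf1, which activates Golgi GTPases, at 0.70 ± 0.16 (adjusted p = 0.0145), the Golgi stacking gene Gorasp2 at -0.70 ± 0.17 (adjusted p = 0.0172) and the ER lectin chaperone gene Canx at -0.62 ± 0.19 (adjusted p = 0.0377). Without control replicate 2, every gene named here with a control value lost its call apart from Ddit3, and without control replicate 1 those of Arf4, Ddost, Dnajb9, Ergic2, Manf, Tram1, Xbp1 and Yipf5 were lost. Without salt replicate 1 the salt calls of Gbf1, Gorasp2 and Canx were lost, and that of Canx was also lost without control replicate 1 or 2. No gene of these lists passed the threshold between salt and control in the ratio, the IP or the input. In the IP, 1 higher and 1 lower gene of the coat regulators, tethers and cargo receptors had an unadjusted limma p under 0.05. So did 1 higher gene in the SRP receptor list and 1 in the unfolded protein response list, against 5.85% of all genes.

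Some markers of neurons and of other cells also differed between IP and input in the control samples. Of all genes tested, 20.9% were lower there and 19.4% higher. Of the 4 tested of 7 ependymal markers 2 were lower, and their summed intensity was 1100.4 to 1242.2 in input and 606.7 to 744.0 in IP. Of the 2 tested of 3 blood markers both were higher, with sums of 751.2 to 1322.1 in input and 1989.3 to 2584.9 in IP. Among the 9 hypothalamic neuron markers 6 were lower, with sums of 8179.4 to 8882.1 in input and 5256.4 to 5845.1 in IP. None of the 6 astrocyte markers and none of the 2 tested endothelial markers passed. Lower were 2 of 5 tested general neuron markers, 2 of 6 oligodendrocyte, 1 of 3 tested microglia and 1 of 2 tested choroid plexus markers. None of these passed as higher. Summed intensities were 10607.0 to 12171.9 in input and 8340.4 to 10095.7 in IP for general neurons. For oligodendrocytes they were 13859.6 to 16355.0 and 10851.3 to 14035.5, and for microglia 873.3 to 956.5 and 709.7 to 759.4. For choroid plexus the sums were 748.3 to 1076.0 in input and 904.5 to 1256.3 in IP, and its other tested marker gave 0.45 log2 IP/input. The part of these shifts in the values above was not tested.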

How the data were processed

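Per the file headers, each deposited array column holds probe intensities (linear), beside which stands a detection p-value. The submitters' processing notes name GenomeStudio, without a version. IP/input ratios per sample, and in a further table the log2 of salt over control, were deposited too. The deposited ratios match the quotients of the deposited intensities (largest relative gap 1.62e-09), with neither background correction nor scaling, and were used as an alternative. The array build is not given in the sources used here.

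Intensities were background-corrected and quantile-normalized with the neqc steps of limma 3.58.1 (R 4.3.3; offset 16) and put on the log2 scale. Probes detected (p under 0.01) on at least 2 of 8 arrays were tested, 14199 of 25697. Symbols were updated through RefSeq names: 20736 probes had a current symbol, 3840 were renamed and 1121 kept the name in the file. A gene is represented by its brightest probe. Log2 IP minus log2 input per sample (2 residual degrees of freedom), and log2 levels of the 8 arrays (4 residual degrees of freedom), were fitted with lmFit and eBayes. Tests are two-sided, the Benjamini-Hochberg adjustment ran over all tested probes, the threshold was 0.05, errors are SE and n is 2 samples per group. An undetected group gives "at least" folds, against the higher of the lowest detected signal and the probe's own value. The number of arrays limits the precision. The code was tested on simulated data.

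Named genes were, per comparison, up to 8 passing members each way, otherwise up to 3 with the lowest p, the extremes of each role, members whose probes disagree, up to 2 passing genes each way of the other pathway lists, and 4 stimulus genes. The genes, lists and tests were chosen with earlier results of these data known.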

Additional observations from a re-analysis of the deposited data

How the results depend on the processing

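The salt comparisons had 0 members past the threshold in the ratio, the IP and the input under every alternative run, apart from Tmed3 in the ratio without salt replicate 1 (1 member higher, and 0 to 1 over the fits that leave out 1 replicate). Leaving out 1 replicate gave member medians of -0.016 to 0.098 in the IP, against 0.052 with all samples. In the input it gave -0.013 to 0.043, against -0.0004 with all samples. In control IP/input, it gave 1 to 9 members higher and 0 to 19 lower, with medians of -0.21 to -0.15; in salt IP/input, 4 to 7 higher and 7 to 12 lower. Median scaling moved the median of all genes to -0.19 and that of the members to -0.38 in control and -0.36 in salt samples, where 21 members were then lower. The members lay 0.19 below all genes in control with it and 0.15 without. With the mean of all probes, Copg1 was reversed to -0.52 in control (adjusted p = 0.0418) and -0.46 in salt samples (adjusted p = 0.0661); the probes differ in sign. Without the filter on dim probes Kdelr1, Sec13, Sec61b and Tmed1 lost their control call, and with IP and input arrays normalized apart Sec61b and Ssr2 did. Without the filter the salt calls of Copg1, Sec13, Canx and Tram1 and the IP calls of Avp (adjusted p = 0.147) and Fos (adjusted p = 0.202) were lost too, and with arrays normalized apart those of Sec13, Copg1 and Canx in salt samples; the cause was not tested.

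The replicate numbers share only a number. Deviations of samples with the same number correlated by 0.01 in the ratio, 0.14 in the IP and -0.23 in the input. With the replicate block 0 members passed in each salt comparison, and among the named genes 1 call was gained, for Avp in the ratio (3.26, adjusted p = 0.0263, against 0.118 without the block). Avp in the ratio also passed with no background correction, normexp, probes detected on all arrays, the deposited ratios, and without salt replicate 1 or 2 (adjusted p from 4.79e-04 to 0.016), so that the count of 0 of 10183 genes in the ratio holds for the main settings and not for these. A crossed pairing in the input, added after seeing the data, gave 0 members higher and 0 lower. Signal over background limits, among others, Sec61b, Sec61a1, Kdelr3, Copz2 and Tmed1, whose intensities lie near those of undetected probes.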
